A study of Homo sapiens with 16 samples.

Results

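The genes described here encode the proteins that build caveolae, the flask-shaped pits of the plasma membrane. They are the caveolins CAV1 and CAV2, the cavins CAVIN1, CAVIN2 and CAVIN3, and the membrane-shaping proteins EHD2 and PACSIN2. They were matched by symbol to the gene IDs of the read-count table, which gave 7 genes of 58735, and they were picked with their values in these libraries known, so that their fitted fold changes are given as a description, with no test. The study asked how the microRNA MIR9-2-5p acts on testicular germ cell tumour cells. RNA was sequenced from NTERA-2 cells, which the study calls NT2/D1 and which are an embryonal carcinoma (EC) line grown in DMEM, and from the seminoma line TCam-2, grown in RPMI. Each line was transfected with a MIR9-2-5p mimic or with a scrambled mimic and collected 3 days later, and 4 biological replicates of each of 4 groups gave 16 libraries: MIR9-2-5p NTERA-2, scrambled NTERA-2, MIR9-2-5p TCam-2 and scrambled TCam-2. All 16 libraries come from transfected cells, each cell type is represented by a single tumour line, and the medium differs with the line, so that line and medium cannot be told apart.

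Caveolins are hairpin proteins that sit in the inner leaflet of the membrane, and CAV1 is needed for the pits to form in most tissues outside muscle. Cavins are soluble proteins that assemble as a coat around the caveolins. CAVIN1 is needed for that coat, while CAVIN2 and CAVIN3 join it in smaller and more tissue-dependent amounts. EHD2 is an ATPase at the neck of the pit that holds it at the surface, and PACSIN2 is an F-BAR protein that bends the membrane and also works outside caveolae. Caveolae are abundant in fat, endothelium, smooth muscle and fibroblasts, flatten when the membrane is stretched, and are known for roles in lipid handling and in signalling.

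The mimic is named for the mature strand shown first below, as RefSeq lists it for the MIR9-2 gene at chr5:88666902-88666924 on the minus strand of GRCh38.p14, with the seed, bases 2 to 8, in capitals. The strand is shown because the matches searched for here are defined by pairing with that seed. Sites of other kinds were not searched for. In the longest annotated 3' UTR of each gene (GENCODE 44, GRCh38) 3 of the 7 held a match to the 6 letters CCAAAG, against 47.6% of 14239 tested genes with a 3' UTR in NTERA-2 cells and 47.3% of 13545 in TCam-2 cells. None of the 7 held the 8mer ACCAAAGA or the 7mer-m8 ACCAAAG. CAV2 held 1 7mer-A1, CCAAAGA, within the printed stretch chr7:116506287-116506312 on the plus strand. CAVIN1 held 2, within the printed stretches chr17:42404255-42404280 and chr17:42403477-42403502 on the minus strand. The matches of CAV2 and CAVIN1 are printed 5' to 3' with the 7mer-A1 letters in capitals. Of these, CCAAAG matches bases 2 to 7 of the strand, and the last A faces base 1, outside the seed. A match is a description and not a shown site.
hsa-miR-9-5p: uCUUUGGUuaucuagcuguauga
CAV2 3' UTR: gcttttctaattaatagCCAAAGAtt
CAVIN1 3' UTR, nearer the stop codon: ctcaaagccaaaactgcCCAAAGAgg
CAVIN1 3' UTR, farther from the stop codon: tgtgagaaggcgatgatCCAAAGAag

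Total counts ranged from 14167738 to 22427162 per library. Levels are given as CPM, a gene's reads scaled to the size of its library with TMM factors, which ranged from 0.893 to 1.04 and were lowest in the scrambled TCam-2 libraries. Calls were made with edgeR's quasi-likelihood test at an adjusted p of 0.05 over all genes tested. Changes were widespread: in NTERA-2 cells 30.2% of 17586 genes were called higher and 29.1% lower with MIR9-2-5p, and in TCam-2 cells 33.7% of 16847 were called higher and 32.7% lower. Groups did not overlap, higher in MIR9-2-5p cells, for 27.4% of the genes in NTERA-2 and 29.5% in TCam-2, and lower for 24.6% and 29.5%. The line labels were checked against markers. SOX2, an EC marker, averaged 182 and 367 CPM in MIR9-2-5p and scrambled NTERA-2 cells and 0.794 and 1.54 CPM in MIR9-2-5p and scrambled TCam-2 cells. SOX17, a seminoma marker, averaged 280 and 237 CPM in MIR9-2-5p and scrambled TCam-2 cells and had 2 reads over all 8 NTERA-2 libraries, both in 1 scrambled library. The mimic itself is not seen in counts of genes.

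In NTERA-2 cells 6 of the 7 genes were higher with MIR9-2-5p, with no overlap between the groups, and PACSIN2 was at the same level in both. Groups lay apart in that direction for 27.4% of all genes, and since the 7 were picked on these values nothing is read from their count against it. In TCam-2 cells only 4 of the 7 had enough counts to be fitted. CAV1, CAVIN1 and CAVIN3 were lower there with no overlap, as were 29.5% of all genes, PACSIN2 overlapped, and none of the 7 was higher without overlap. The CAV1 groups overlapped with CPM from raw library totals, and CAVIN3 had 1 read with MIR9-2-5p and 94 with the scrambled mimic. Together the 7 genes took 1061 ± 50.9 CPM in MIR9-2-5p NTERA-2 cells and 250 ± 15.4 CPM in scrambled NTERA-2 cells, and 130 ± 13.8 CPM in MIR9-2-5p TCam-2 cells and 192 ± 13.0 CPM in scrambled TCam-2 cells (SD, n = 4). In bulk RNA more cells with a message and more message per cell cannot be told apart.

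**Figure D1:**
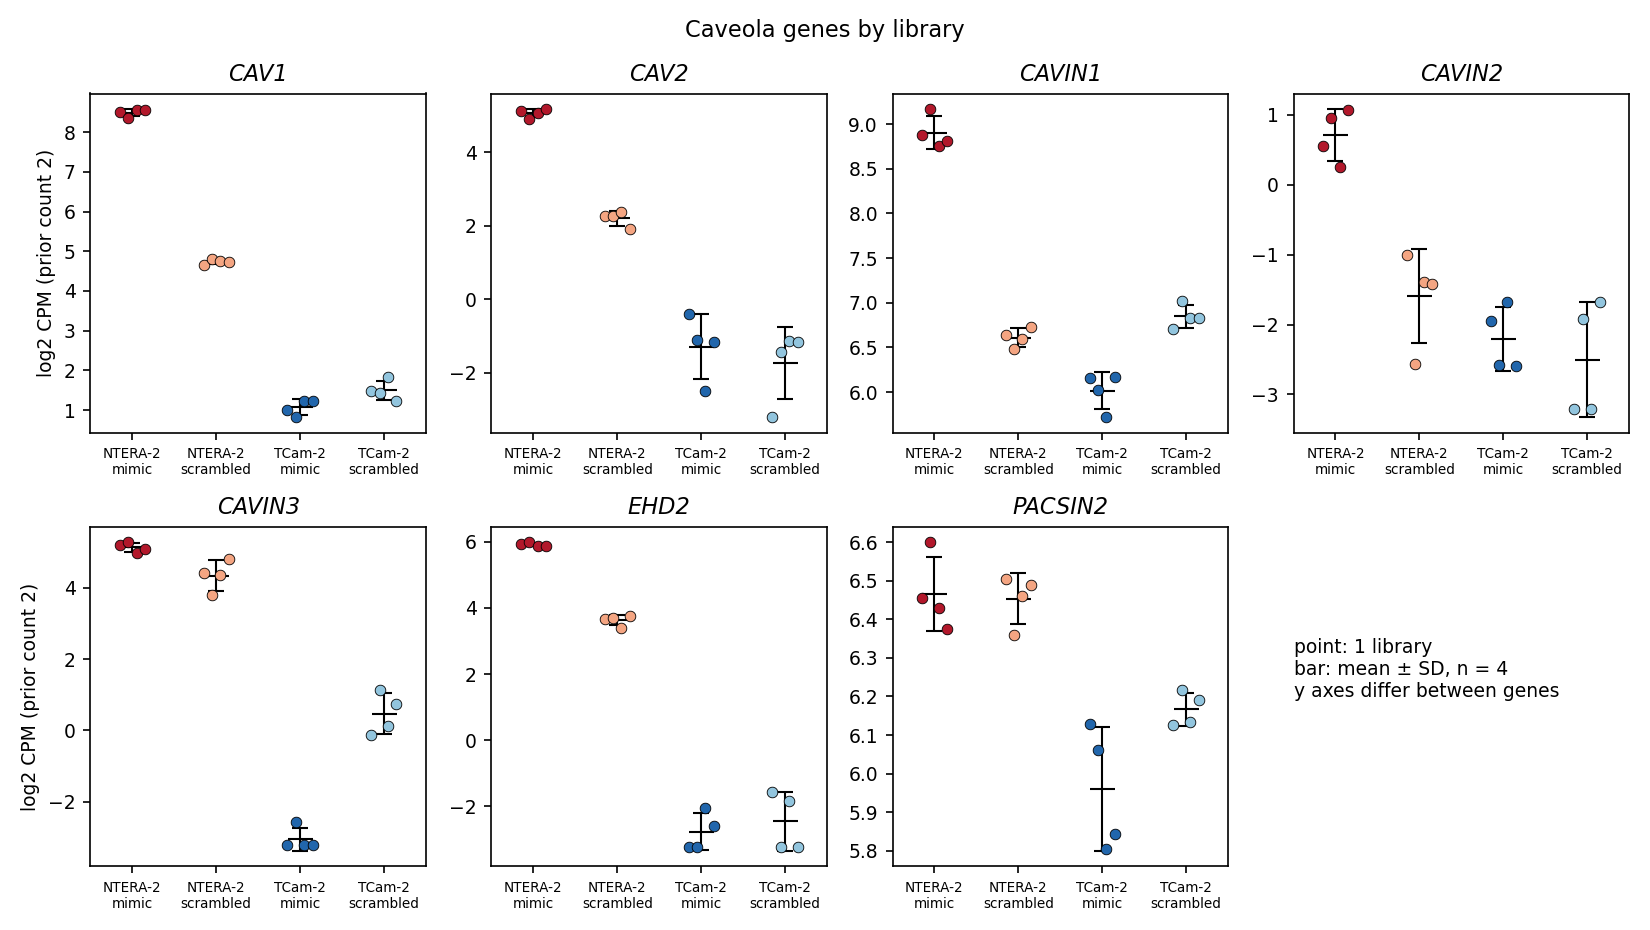
Level of each caveola gene in every library, as log2 CPM with a prior count of 2 on the y axis and the 4 groups on the x axis. Points are libraries and bars the mean ± SD (n = 4). CAV1, CAV2, CAVIN1, CAVIN2, CAVIN3 and EHD2 sit higher in all 4 MIR9-2-5p NTERA-2 libraries than in any scrambled NTERA-2 library, while PACSIN2 overlaps.

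CAV1, the main structural caveolin (ENSG00000105974, chr7:116524994-116561179, plus strand), had the largest change of the 7 in NTERA-2 cells. It stood at 360, 329, 379 and 373 CPM in the MIR9-2-5p libraries, against 25.2, 27.8, 26.9 and 26.3 CPM in the scrambled libraries. The lowest MIR9-2-5p library was thus far above the highest scrambled one, and both groups were tight. The means were 360 ± 22.5 CPM and 26.5 ± 1.08 CPM (SD, n = 4), a fitted fold of 13.5 and a log2 fold change of 3.76 (SE 0.08). In TCam-2 cells CAV1 was near the low end of what was counted, with 38, 28, 33 and 39 reads in the MIR9-2-5p libraries and 46, 50, 60 and 33 reads in the scrambled libraries. The CPM were 1.66 to 2.24 against 2.25 to 3.44, groups that touch without overlapping. With CPM from raw library totals they overlapped, at 1.70 to 2.33 against 2.09 to 3.17. The log2 fold change was -0.44 (SE 0.21), and it ran from -0.54 to -0.33 as each library was left out. The CAV1 order was MIR9-2-5p NTERA-2, scrambled NTERA-2, scrambled TCam-2 and MIR9-2-5p TCam-2, and the last 2 were the neighbours that did not separate under both scalings.

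CAV2, the partner caveolin that travels with CAV1 in mixed oligomers (ENSG00000105971, chr7:116287380-116508541, plus strand), was at 35.0, 30.0, 33.6 and 35.9 CPM in MIR9-2-5p NTERA-2 libraries and 4.71, 4.74, 5.12 and 3.65 CPM in scrambled ones. Its groups did not overlap either, and its log2 fold change was 2.88 (SE 0.12), or 7.35-fold. TCam-2 cells gave only 26 CAV2 reads over the 4 MIR9-2-5p libraries and 16 over the 4 scrambled libraries. Scaled by raw library totals, without TMM factors, the ratio from those reads was 1.79. Its 95% exact interval of 0.927 to 3.58 covers counting error alone, and the groups overlapped.

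The caveolins also differed from each other in how far they moved. Per kilobase of transcript, CAV1 was 12.9 times CAV2 in MIR9-2-5p NTERA-2 cells (12.4 to 13.6 over the libraries) and 7.06 times in scrambled NTERA-2 cells (6.32 to 8.66), so that the ratio did not overlap between the groups. It was not formed in TCam-2 cells, where CAV2 had too few reads.

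CAVIN1, the cavin on which the coat depends (ENSG00000177469, chr17:42402449-42423256, minus strand), moved in opposite directions in the 2 lines. In NTERA-2 cells it had 470, 576, 430 and 450 CPM with MIR9-2-5p and 99.4, 89.2, 96.5 and 106 CPM with the scrambled mimic. The means were 481 ± 64.9 and 97.7 ± 6.94 CPM, and the log2 fold change was 2.30 (SE 0.09), or 4.91-fold. In TCam-2 cells it had 71.3, 65.1, 52.6 and 71.7 CPM with MIR9-2-5p and 104, 130, 114 and 114 CPM with the scrambled mimic. Every MIR9-2-5p TCam-2 library was below every scrambled one, with means of 65.2 ± 8.91 and 116 ± 10.5 CPM (SD, n = 4) and a log2 fold change of -0.81 (SE 0.09). Scrambled cells of the 2 lines overlapped in CAVIN1, and this is the caveola coat gene that TCam-2 cells expressed at a level near that of NTERA-2 cells.

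CAVIN2, which helps shape the pit in some tissues (ENSG00000168497, chr2:191834310-191847088, minus strand), was scarce everywhere. It had 28, 34, 25 and 43 reads in MIR9-2-5p NTERA-2 libraries and 7, 1, 6 and 5 reads in scrambled ones. The groups did not overlap. Scaled by raw library totals, the ratio from the summed 130 and 19 reads was 6.12 (95% exact interval 3.76 to 10.5). That interval covers counting error alone and not the spread between libraries. TCam-2 cells had 8 CAVIN2 reads with MIR9-2-5p and 6 with the scrambled mimic, over 4 libraries each, and were not fitted. The fewest counts of the 7 genes in NTERA-2 cells thus lie with CAVIN2.

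CAVIN3, the cavin that binds CAV1 and protein kinase C delta (ENSG00000170955, chr11:6318946-6320532, minus strand), changed least of the 6 that were higher in NTERA-2 cells. It had 36.5, 38.6, 31.3 and 34.1 CPM in MIR9-2-5p libraries and 21.0, 13.7, 20.6 and 28.1 CPM in scrambled libraries, which spread over a wider range. The log2 fold change was 0.74 (SE 0.15), or 1.67-fold. In TCam-2 cells the gene was close to lost from the counts: the MIR9-2-5p libraries had 0, 1, 0 and 0 reads and the scrambled libraries had 14, 40, 17 and 23. Scaled by raw library totals, the ratio from 1 and 94 reads was 0.0117, with a 95% exact interval of 0.000294 to 0.0670 for counting error alone. Its fitted log2 fold change of -5.96 depends on how a near-zero count is handled and reached -7.56 without the library that holds the 1 read. A lncRNA, ENSG00000282556, overlaps CAVIN3 on the other strand, with 87 and 151 counts in MIR9-2-5p and scrambled NTERA-2 cells and 0 and 6 in MIR9-2-5p and scrambled TCam-2 cells, and without a known strand setting its reads cannot be told apart from those of CAVIN3.

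EHD2, the ATPase of the caveola neck (ENSG00000024422, chr19:47713422-47743134, plus strand), was at 61.1, 62.9, 59.0 and 57.9 CPM in MIR9-2-5p NTERA-2 libraries and 12.5, 12.8, 10.5 and 13.5 CPM in scrambled ones. These groups did not overlap, with means of 60.2 ± 2.25 and 12.3 ± 1.29 CPM (SD, n = 4) and a log2 fold change of 2.29 (SE 0.09), or 4.88-fold. EHD2 was all but uncounted in TCam-2 cells, with 3 reads over the 4 MIR9-2-5p libraries and 7 over the 4 scrambled ones, so that no change could be seen at this depth.

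PACSIN2, the F-BAR protein (ENSG00000100266, chr22:42835412-43015149, minus strand), did not follow the others. It had 87.5, 96.8, 86.1 and 82.9 CPM in MIR9-2-5p NTERA-2 libraries and 90.7, 82.1, 88.0 and 89.7 CPM in scrambled ones. The groups overlapped and the log2 fold change was 0.01, with a 95% interval of -0.14 to 0.15. In TCam-2 cells it had 69.9, 66.7, 55.8 and 57.4 CPM with MIR9-2-5p and 69.7, 74.2, 70.1 and 72.9 CPM with the scrambled mimic. The first MIR9-2-5p library reached into the scrambled range, and the log2 fold change was -0.19 (SE 0.08). It ran from -0.24 to -0.14 as each library was left out. ARFGAP3 overlaps PACSIN2 on the same strand, with 2176 and 1169 counts in MIR9-2-5p and scrambled NTERA-2 cells and 1604 and 1009 in MIR9-2-5p and scrambled TCam-2 cells, and how shared reads were counted is not known.

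**Figure D2:**
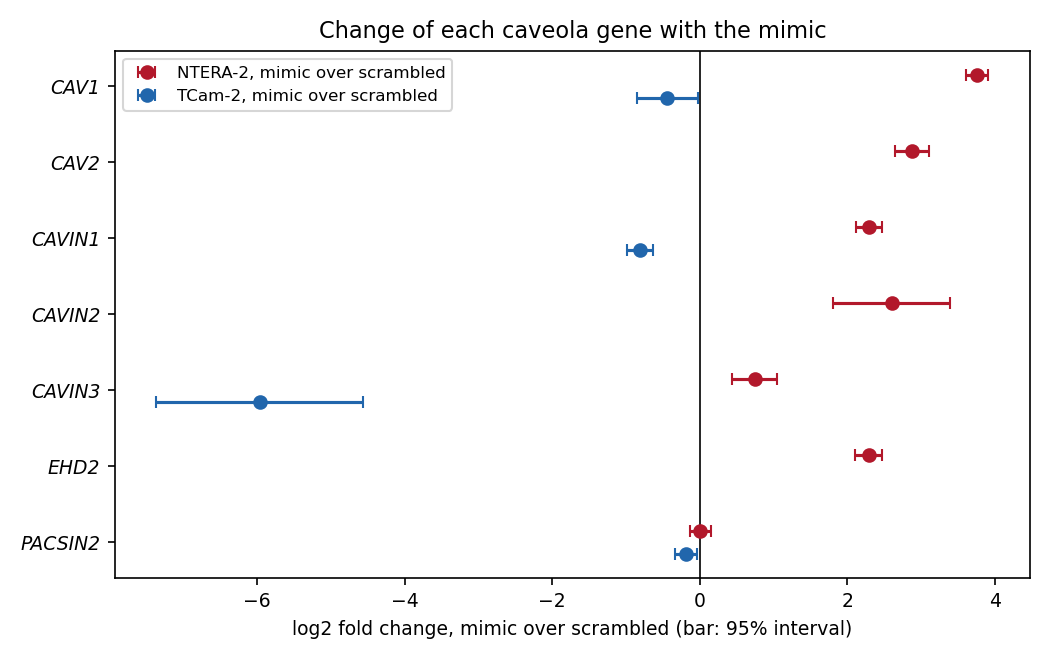
Log2 fold change of each caveola gene, MIR9-2-5p over scrambled, with its 95% interval on the x axis and the genes down the y axis, in NTERA-2 and TCam-2 cells. NTERA-2 values lie between 0.74 and 3.76 for all but PACSIN2, and the TCam-2 values shown lie below 0. CAV2, CAVIN2 and EHD2 had too few TCam-2 reads to be fitted, and the CAVIN3 value in TCam-2 cells rests on 1 read with MIR9-2-5p.

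The difference between the lines was not tested for these genes, because their opposite changes were known when they were picked. As a description, the log2 fold change in NTERA-2 cells minus that in TCam-2 cells was 4.22 for CAV1 (SE 0.17), 3.12 for CAVIN1 (SE 0.14) and 0.21 for PACSIN2 (SE 0.11). These genes had reads in every library. For CAV2 the difference was 2.21 (SE 0.62), for EHD2 3.41 (SE 1.00) and for CAVIN2 2.22 (SE 1.08), with few TCam-2 reads behind them. The EHD2 difference was 2.67 without scrambled TCam-2 replicate 1 and 4.41 without MIR9-2-5p TCam-2 replicate 3, and the CAVIN2 difference was 1.60 without scrambled TCam-2 replicate 4.

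With no mimic effect involved, scrambled NTERA-2 cells were above scrambled TCam-2 cells in 5 of the 7 genes with no overlap, and below in none. The same pattern of libraries was found for 35.4% of 19576 genes in the higher and 35.1% in the lower direction. The fitted log2 difference was 6.82 for EHD2 (SE 0.29), 4.25 for CAV2 (SE 0.32), 3.93 for CAVIN3 (SE 0.23), 3.27 for CAV1 (SE 0.10) and 0.29 for PACSIN2 (SE 0.07). The EHD2 value rests on 7 TCam-2 reads and was 7.55 without scrambled TCam-2 replicate 1. CAVIN1 was at -0.24 (SE 0.10) with overlapping groups, and CAVIN2 overlapped with 19 and 6 reads. TCam-2 cells thus had CAVIN1 and PACSIN2 messages, few CAV1 messages, and hardly any of CAV2, CAVIN2 or EHD2.

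The make-up of the set was compared per kilobase of the annotated canonical transcript, since reads scale with length. In MIR9-2-5p NTERA-2 cells CAV1 had 147 CPM per kilobase, CAVIN1 135, CAVIN3 34.2, PACSIN2 27.2, EHD2 17.2, CAV2 11.4 and CAVIN2 0.514. In scrambled NTERA-2 cells CAVIN1 had 27.4 CPM per kilobase, PACSIN2 27.0, CAVIN3 20.3, CAV1 10.8, EHD2 3.51, CAV2 1.54 and CAVIN2 0.0812. CAV1 thus stood first of the 7 with MIR9-2-5p and below CAVIN1, PACSIN2 and CAVIN3 in scrambled cells. The neighbours CAV1 and CAVIN1 with MIR9-2-5p, and CAVIN1, PACSIN2 and CAVIN3 in scrambled cells, overlapped over their libraries.

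The ratio of CAVIN1 to CAV1 per kilobase was 0.915 in MIR9-2-5p NTERA-2 cells (0.781 to 1.21) and 2.53 in scrambled NTERA-2 cells (2.21 to 2.77). In TCam-2 cells it was far higher, at 22.3 with MIR9-2-5p (16.1 to 27.0) and 29.3 in scrambled cells (22.8 to 34.8), where the groups overlapped. EHD2 over CAV1 was 0.117 in MIR9-2-5p NTERA-2 cells (0.109 to 0.134) and 0.324 in scrambled ones (0.272 to 0.359). PACSIN2 over CAV1 was 0.185 in MIR9-2-5p NTERA-2 cells (0.168 to 0.223) and 2.49 in scrambled ones (2.23 to 2.72). In NTERA-2 cells CAV1 thus gained on every gene it was set against, with no overlap in any of these ratios. Without division by length the mean log2 ratio of CAVIN1 to CAV1 with MIR9-2-5p changed sign, being -0.13 per kilobase and 0.41 in raw counts.

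**Figure D3:**
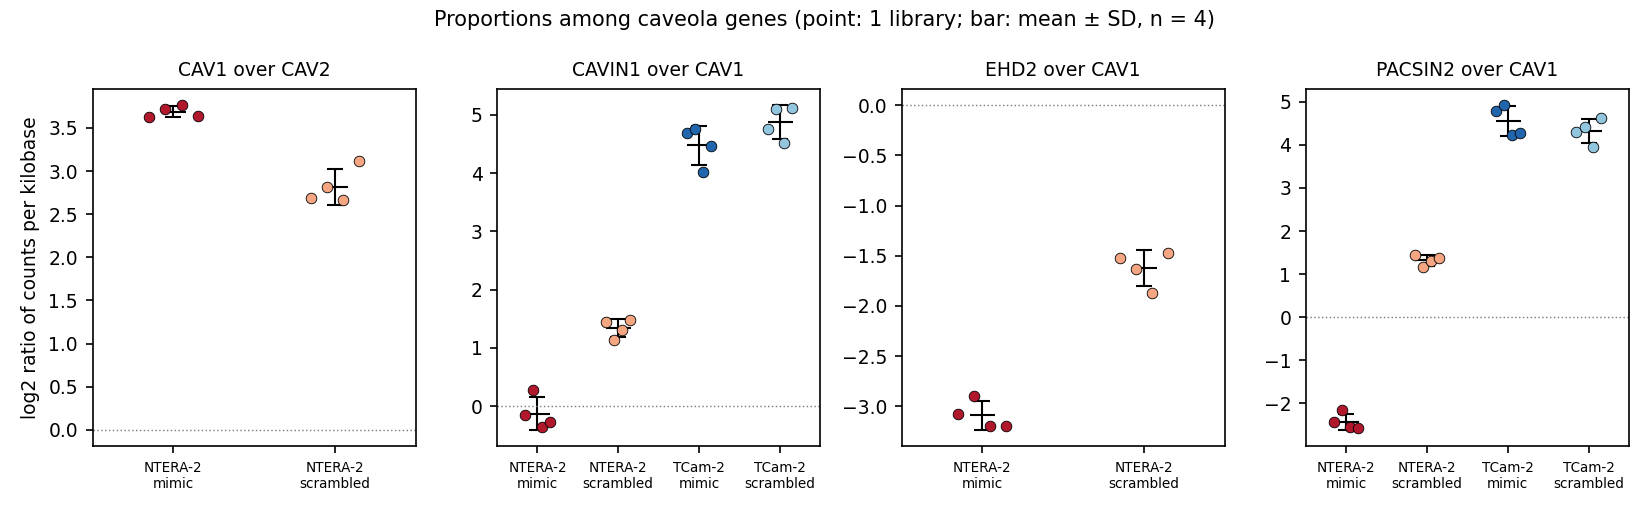
Log2 ratio of counts per kilobase between pairs of caveola genes on the y axis, with groups on the x axis. Points are libraries and bars the mean ± SD (n = 4), and TCam-2 cells are left out of the CAV2 and EHD2 ratios for want of reads. In NTERA-2 cells CAVIN1, EHD2 and PACSIN2 all lie lower against CAV1 with MIR9-2-5p than in scrambled cells.

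Relatives of these genes that work mostly outside caveolae, or in muscle, were not part of the set and were tested. They, and the partners and markers below, were also chosen with earlier results of these data known. Their p-values are thus not free of that choice. Of 7 relatives 6 had enough reads. In NTERA-2 cells EHD1 and EHD4 rose and CAVIN4 and PACSIN1 fell, and in TCam-2 cells EHD4 rose while EHD1, EHD3 and PACSIN3 fell. EHD1, an ATPase of endosomal recycling, had the largest change in NTERA-2 cells among them, with 226 ± 21.2 CPM with MIR9-2-5p and 46.7 ± 7.07 CPM in scrambled cells (SD, n = 4). On the log2 scale it rose by 2.27 (SE 0.10, edgeR adjusted p = 9.29e-12), beside 2.29 for EHD2. In TCam-2 cells EHD1 was at 47.9 ± 5.99 CPM with MIR9-2-5p and 81.8 ± 4.91 CPM in scrambled cells, and it fell by 0.76 on the log2 scale (SE 0.08, edgeR adjusted p = 3.84e-07). The 2 lines differed in this effect by 3.04 (SE 0.14, edgeR adjusted p = 4.19e-15), so that EHD1 moved up in one line and down in the other as CAVIN1 did.

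Among the other EHD proteins, EHD3 had a log2 fold change of 0.13 in NTERA-2 cells (edgeR adjusted p = 0.256) and -0.95 in TCam-2 cells (edgeR adjusted p = 2.20e-09). EHD4 had 0.39 in NTERA-2 cells (edgeR adjusted p = 0.000681) and 0.30 in TCam-2 cells (edgeR adjusted p = 0.0036). CAVIN4, the muscle cavin, was low, at 13.9 ± 0.578 CPM in MIR9-2-5p NTERA-2 cells and 18.4 ± 1.83 CPM in scrambled ones, and its log2 fold change of -0.41 (edgeR adjusted p = 0.00198) ran against that of the other cavins. PACSIN1, the neuronal PACSIN, had -1.04 in NTERA-2 cells (edgeR adjusted p = 0.000102), and PACSIN3, the muscle-enriched one, had -1.63 in TCam-2 cells (edgeR adjusted p = 1.48e-08). CAV3, the muscle caveolin, had 14 and 2 reads over MIR9-2-5p and scrambled NTERA-2 cells and 6 and 8 over MIR9-2-5p and scrambled TCam-2 cells, too few for a fit. In the test of the difference between lines 3 of the 6 relatives were called higher in NTERA-2 and 2 lower, beside 27.9% of all genes called higher and 25.3% lower.

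Proteins that bind caveolae or are known to signal from them had fold changes in both directions. Of 13 listed partners, all of them tested, 5 rose and 2 fell in NTERA-2 cells (median log2 fold change 0.21, against -0.02 over all genes), where 30.2% of all genes were called higher and 29.1% lower. In TCam-2 cells 3 rose and 7 fell (median -0.22, against 0.02), where 33.7% of all genes were called higher and 32.7% lower. PRKCA, a protein kinase C that phosphorylates many membrane proteins, rose in both lines, with a log2 fold change of 0.89 in NTERA-2 (edgeR adjusted p = 2.44e-07) and 1.12 in TCam-2 (edgeR adjusted p = 1.48e-06). So did FYN, a Src-family kinase that sits with CAV1, at 0.67 (edgeR adjusted p = 7.45e-07) and 0.89 (edgeR adjusted p = 6.65e-09). ROR1, a receptor that binds CAVIN1 and CAV1, went the other way from CAVIN1, with -0.66 in NTERA-2 cells (edgeR adjusted p = 2.51e-07) and 1.02 in TCam-2 cells (edgeR adjusted p = 2.63e-05). PRKCD, the kinase that CAVIN3 binds, had -0.11 in NTERA-2 cells (edgeR adjusted p = 0.509) and fell by 0.95 in TCam-2 cells (edgeR adjusted p = 7.68e-08), where CAVIN3 was also lower.

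**Figure D4:**
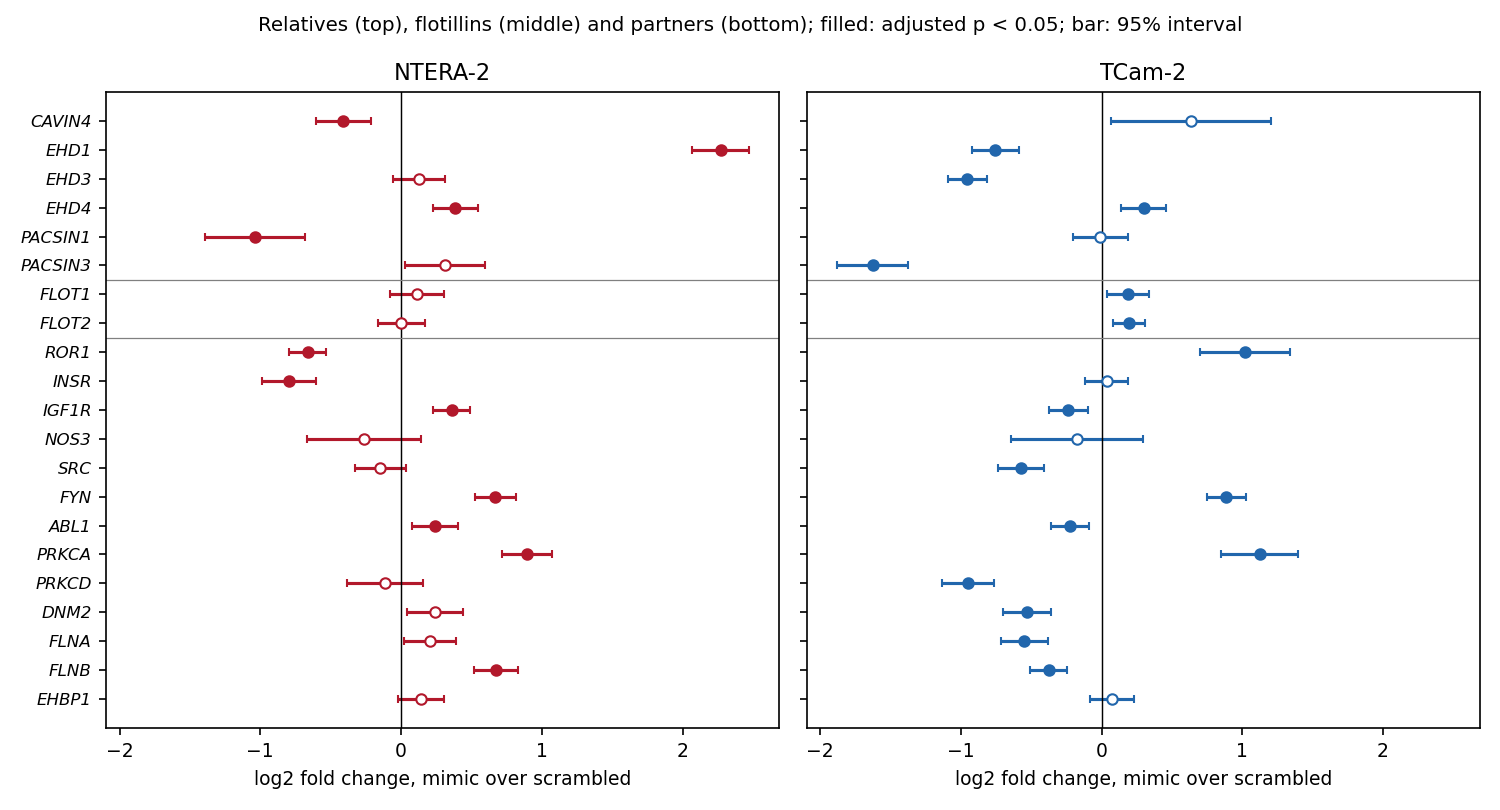
Log2 fold change, MIR9-2-5p over scrambled, on the x axis with 95% intervals, for relatives, flotillins and caveola partners down the y axis, in NTERA-2 (left) and TCam-2 (right) cells. Filled points passed an adjusted p of 0.05. EHD1 stands at 2.27 in NTERA-2 and -0.76 in TCam-2, and no partner goes past 1.12.

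Other membrane routes were measured alongside. The flotillins FLOT1 and FLOT2, which mark lipid microdomains that are not caveolae, had log2 fold changes of 0.11 and 0.00 in NTERA-2 cells (edgeR adjusted p = 0.331 and 0.990). In TCam-2 cells they had 0.19 (edgeR adjusted p = 0.0394) and 0.20 (edgeR adjusted p = 0.00738), while CAVIN1 was lower there. The FLOT1 call was lost with the DESeq2 test, with RLE factors, with all libraries in one fit, and without MIR9-2-5p replicate 1, 2 or 4 or scrambled replicate 1, 3 or 4, over which its log2 fold change ran from 0.12 to 0.18. Using the replicate number as a block also lost this call. Of 20 genes of clathrin-coated pit uptake 12 rose and 2 fell in NTERA-2 cells (median 0.23, against -0.02 over all genes, of which 30.2% were called higher and 29.1% lower). In TCam-2 cells 8 rose and 6 fell (median 0.01, against 0.02 over all genes, of which 33.7% were called higher and 32.7% lower). CLTB, a clathrin light chain, rose by 1.32 in NTERA-2 cells (edgeR adjusted p = 4.67e-09) and fell by 0.41 in TCam-2 cells (edgeR adjusted p = 0.0106). SYNJ1, a phosphatase that uncoats vesicles, rose by 1.12 in NTERA-2 cells (edgeR adjusted p = 9.61e-08) and by 0.40 in TCam-2 cells (edgeR adjusted p = 0.00145). DNM1, the neuronal dynamin, fell by 1.06 in NTERA-2 cells (edgeR adjusted p = 1.76e-08). In TCam-2 cells AP2A1, an adaptor subunit, fell by 0.91 (edgeR adjusted p = 4.55e-09), ITSN1, a scaffold of the pit, fell by 0.71 (edgeR adjusted p = 4.96e-08), and AAK1, the adaptor kinase, rose by 0.86 (edgeR adjusted p = 2.51e-08). In NTERA-2 cells AP2A1 rose by 0.285 (edgeR adjusted p = 0.0214) and AAK1 by 0.57 (edgeR adjusted p = 9.17e-05). ITSN1 had -0.04 there (edgeR adjusted p = 0.620).

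CAV2 and CAV1 lie next to each other on chromosome 7, and the values of 5 neighbours are given beside them. The neighbours were added after values were seen, so that their p-values carry that choice. TFEC, a transcription factor gene on the side of CAV2, was at 17.3 ± 3.09 CPM in MIR9-2-5p NTERA-2 cells and 0.896 ± 0.200 CPM in scrambled ones (SD, n = 4), which edgeR fitted as a log2 fold change of 4.24 (SE 0.19, adjusted p = 1.01e-11). It had 2 reads over MIR9-2-5p TCam-2 libraries and 0 over scrambled ones. TES, an actin-linked gene between TFEC and CAV2, fell by 0.31 in NTERA-2 cells (edgeR adjusted p = 0.00603) and rose by 1.20 in TCam-2 cells (edgeR adjusted p = 7.98e-11). The gene nearest to CAV2 on that side thus fell in NTERA-2 cells, where both caveolins were higher. On the side of CAV1, MET, the receptor of hepatocyte growth factor, rose by 0.48 in NTERA-2 cells (edgeR adjusted p = 0.000191) and by 0.73 in TCam-2 cells (edgeR adjusted p = 0.000167). CAPZA2, an actin-capping subunit, rose by 0.46 in NTERA-2 cells (edgeR adjusted p = 0.000297), and ST7 had -0.02 (edgeR adjusted p = 0.840). Among the 5 neighbours measured, TFEC alone had a log2 fold change as large as those of CAV1 and CAV2 in NTERA-2 cells.

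**Figure D5:**
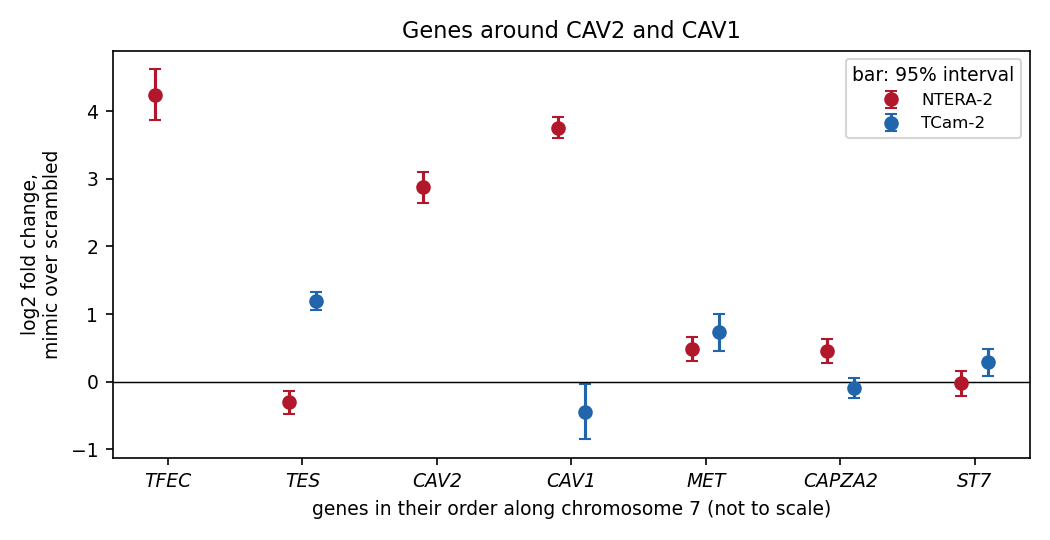
Log2 fold change, MIR9-2-5p over scrambled, on the y axis with 95% intervals for CAV2, CAV1 and their neighbours in chromosomal order on the x axis, in NTERA-2 and TCam-2 cells. TFEC, CAV2 and CAV1 lie at 4.24, 2.88 and 3.76 in NTERA-2 cells with TES, between TFEC and CAV2, at -0.31. TFEC and CAV2 had too few TCam-2 reads to be fitted.

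Promoters were searched for letters of 2 factors with known links to membrane tension and matrix genes, on both strands, from 250 bases before to 50 after each start in RefSeq (GRCh38.p14). GGAATG, the core bound by TEAD factors, was in 14% of 35116 promoters, and TGANTCA, the AP-1 motif, in 7.71%. CAV1 has 3 listed promoters, CAV2 has 2 and EHD2 has 1, and none held either motif. CAVIN2 held GGAATG in its 1 promoter, within the printed stretch chr2:191847089-191847115 on the minus strand. It is shown with the letters in capitals because it is the single match among the genes that were higher in NTERA-2 cells. PACSIN2 held it in 4 of 6, of which 3 overlap and share 1 site, so that 2 sites lie behind them. No entry was matched for CAVIN1 and CAVIN3.
CAVIN2 promoter: taagagcagctGGAATGcagttcccct

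The genes whose levels over the 16 libraries lay nearest to each caveola gene were found among 12089 genes. The measure was the root mean square difference of centred log2 CPM with a prior count of 2. The prior count lifts values near 0, so that it shapes the distances of genes hardly counted in TCam-2 cells. For CAV1 they were SERPINB7 (0.321), LOX (0.394) and COL2A1 (0.426). SERPINB7 was hardly counted in TCam-2 cells, at 0.0170 CPM with MIR9-2-5p and 0.0573 CPM in scrambled cells. LOX, which cross-links collagen, averaged 127 and 19.1 CPM in MIR9-2-5p and scrambled NTERA-2 cells and 0.903 and 1.35 CPM in MIR9-2-5p and scrambled TCam-2 cells. For CAV2 they were COL11A1 (0.533), THBS1 (0.544) and NRG1 (0.576). CAVIN1 had nearer neighbours, ZNF385A (0.194), RAB32 (0.239) and MFAP5 (0.244). EHD2 had CDH6 (0.545), PTX3 (0.550) and MAMDC2 (0.594), CAVIN2 had NEK6 (0.525), HBEGF (0.525) and IQCJ-SCHIP1 (0.528), and CAVIN3 had LRRC61 (0.568), SYT13 (0.620) and SP110 (0.761). For PACSIN2 the nearest were SFSWAP (0.0718), TFE3 (0.0742) and SND1 (0.0792), whose values are small because all of these genes vary little over the libraries.

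Markers of cell types rich in caveolae were read beside these values. The counts of rises and falls below stand beside the shares over all genes. Those were 30.2% called higher and 29.1% lower in NTERA-2 cells, and 33.7% and 32.7% in TCam-2 cells. The summed level of 10 fibroblast markers was 606 to 694 CPM in MIR9-2-5p NTERA-2 cells and 522 to 612 CPM in scrambled NTERA-2 cells, ranges that overlap, and 5 rose and 3 fell of the 8 tested. COL3A1 rose to 11.1 CPM with MIR9-2-5p, against 1.57 CPM in scrambled NTERA-2 cells, LUM to 20.2 against 3.83 CPM, COL1A1 to 354 against 129 CPM, PDGFRB to 61.7 against 30.6 CPM and COL1A2 to 27.4 against 19.8 CPM, so that these 5 were higher where the caveola genes were. THY1 fell to 165 against 371 CPM, POSTN to 1.54 against 4.24 CPM and PDGFRA to 2.21 to 3.75 CPM over the libraries, against 7.18 to 9.11 CPM. DCN had no read in any NTERA-2 library and FAP averaged 0.175 CPM with MIR9-2-5p and had none in scrambled cells. In TCam-2 cells the same sum was 192 to 212 CPM with MIR9-2-5p and 471 to 491 CPM in scrambled cells, and 5 fell of the 6 tested, COL1A2, COL3A1, LUM, PDGFRB and THY1. Of 8 endothelial markers, 2 rose and 1 fell of 5 tested in NTERA-2 cells, with sums of 94.9 to 98.4 CPM in MIR9-2-5p cells and 79.6 to 98.0 CPM in scrambled ones, and EMCN had 5 reads in MIR9-2-5p cells and none in scrambled ones. TIE1 rose to 15.8 CPM with MIR9-2-5p, against 5.32 CPM in scrambled NTERA-2 cells (edgeR adjusted p = 6.86e-08). TEK rose to 69.2 against 50.1 CPM (edgeR adjusted p = 0.000112), and KDR fell to 6.92 against 27.4 CPM (edgeR adjusted p = 2.36e-10). TIE1, TEK and KDR were named after their values were seen, so that their p-values carry that choice. In TCam-2 cells 1 endothelial marker rose and 2 fell of 4 tested. The 5 adipocyte markers summed to under 1 CPM in every library. Of 8 EC markers all 8 fell in NTERA-2 cells, where their sum was 1774 to 1856 CPM with MIR9-2-5p and 6446 to 6676 CPM in scrambled cells. In TCam-2 cells 4 of those 8 fell and 2 rose. Of 8 seminoma markers 4 rose and 3 fell in TCam-2 cells, and 2 rose and 3 fell of the 6 tested in NTERA-2 cells. The EC and seminoma lists share 2 genes, and both are among the falls of each list in NTERA-2 cells. The part of these markers in the caveola values was not tested.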

How the data were processed

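Counts of 16 libraries were analysed. Raw read counts for each gene were deposited, from STAR alignments to GRCh38 summed by featureCounts. For the annotation release and the strand setting of that step, no value is given in the sources used here, and the labels and the methods differ on the trimming tool and the RNA kit. Of 58735 gene IDs, 58207 matched GENCODE 44, which gave symbols, positions, transcript lengths and 3' UTRs, though the counting may have used another release.

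Genes were fitted in R 4.3.3 by edgeR 4.0.16 with TMM factors, filterByExpr (count 10, total 15) and robust quasi-likelihood dispersions, each line fitted alone and the difference between lines over all 16 libraries, with Benjamini-Hochberg adjustment over all genes tested and a threshold of 0.05. The genes, their relatives, partners and markers were chosen with earlier results of these data known. Named were all caveola genes, relatives and flotillins, the 3 partners and the 3 clathrin genes with the smallest adjusted p in each line, the 3 nearest genes per caveola gene (mean CPM of at least 5), the genes around CAV2 and CAV1, and markers. The neighbours of CAV2 and CAV1, and TIE1, TEK and KDR among the markers, were added after values were seen. Ratios of summed counts were scaled by raw library totals, without TMM factors. Their intervals are exact binomial at 95% and cover counting error only. The ratio of 2 genes needed 10 reads of each.

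On simulated counts with 50 genes changed per fold size, edgeR recovered 10, 42, 50 and 50 at folds of 1.25, 1.5, 2 and 4 in NTERA-2 cells (17246 genes, 8 false of 160 calls), and 14, 39, 50 and 50 in TCam-2 cells (16527 genes, 12 false of 165 calls). For the difference between lines it recovered 1, 21, 42 and 47 (19161 genes, 4 false of 115 calls). The changed genes were drawn from those averaging at least 50 counts, so that recovery of scarcer genes was not measured. Far fewer genes were changed than were called in the data. Alternatives were RLE factors, upper-quartile factors, leaving out the filter, keeping only genes averaging at least 100 counts, DESeq2 1.42.0, CPM from raw library totals (chosen after seeing the data), the replicate number as a block, all libraries in one fit, each library left out, raw ratios without length, and every annotated 3' UTR. Replicates are called biological, and p-values measure the spread between these libraries. Every pair of replicates differed by more than counting noise. Fitted 95% intervals are the estimate with its SE times the normal quantile. Every per-sample column was used. The remaining seed match is not reported here.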

Additional observations from a re-analysis of the deposited data

Results flagged for a closer look

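FLOT1 had 1 library far from the other 3 in scrambled NTERA-2 cells, at 66.3 CPM against 85.0 to 88.1 CPM. This was 1 of 114 combinations of gene and group examined, and chance flags about 1 in 20.

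For 3 caveola genes every MIR9-2-5p library lay above every scrambled one in NTERA-2 cells and below in TCam-2 cells. The log2 effect in NTERA-2 minus that in TCam-2 was 6.76 for CAVIN3, 4.22 for CAV1 and 3.12 for CAVIN1, and these differences were not tested. For CAV1 the TCam-2 groups overlapped with CPM from raw library totals, and for CAVIN3 the value rests on 1 read in MIR9-2-5p TCam-2 cells and was 8.43 without the library that holds it.

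Among genes outside the set, the effect differed between the lines by edgeR's interaction test, over 19576 genes, with values again as NTERA-2 minus TCam-2. Positive differences were 3.04 for EHD1, 1.10 for EHD3 (adjusted p = 1.98e-08), 1.96 for PACSIN3 (adjusted p = 1.13e-06), 0.86 for PRKCD (adjusted p = 0.000123), 1.75 for CLTB (adjusted p = 4.35e-08), 0.74 for SYNJ1 (adjusted p = 6.84e-05), 1.22 for AP2A1 (adjusted p = 1.98e-08), 0.69 for ITSN1 (adjusted p = 3.26e-07) and 0.57 for CAPZA2 (adjusted p = 0.000301). Negative differences were -1.04 for CAVIN4 (adjusted p = 0.00197), -1.02 for PACSIN1 (adjusted p = 0.000137), -1.66 for ROR1 (adjusted p = 3.01e-09), -0.79 for DNM1 (adjusted p = 0.00013) and -1.49 for TES (adjusted p = 8.55e-12).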

How the results depend on the processing

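Over all alternatives run, no fold change of a named gene outside the caveola set that was past the threshold changed sign. Among the values of those genes over the alternatives, 18 lost a call and 22 gained one, while 1435 stayed on the same side of the threshold. Among the caveola genes PACSIN2 in NTERA-2 cells, near 0, changed sign and no other did. Other values near 0 that missed the threshold in both fits did, for FLOT2, ITSN1 and ST7 in NTERA-2 cells, PACSIN1 in TCam-2 cells, and EHD4 and FLOT1 in the difference between lines. With genes of a mean count of at least 100 alone, which leaves out CAV1 and CAVIN3 in TCam-2 cells, the line difference in scrambled cells had 9899 genes called in place of 15159, as fewer genes were tested. Of 12 ratios taken without length, that of CAVIN1 to CAV1 in MIR9-2-5p NTERA-2 cells changed sign, to 0.41 on the log2 scale. Upper-quartile factors moved the median of all genes in the difference between lines to -0.12 on the log2 scale, and the PACSIN2 difference to 0.08. With every annotated 3' UTR 3 of 7 genes still held a seed match, against 50.5% of tested genes in NTERA-2 cells. The labels do not say whether replicate numbers pair the libraries. Same-numbered libraries had correlations of -0.196 to 0.0397, which show no pairing but cannot exclude it. With the replicate number as a block the mimic effect in NTERA-2 had 9555 genes called and the mimic effect in TCam-2 had 10819, against 10431 and 11177 without it. The block lost one call, the FLOT1 log2 fold change, mimic effect in TCam-2 (edgeR adjusted p = 0.0594), and changed no other call of the named genes outside the caveola set. The block could not be fitted between the scrambled groups of the 2 lines. Depth limits CAV2, CAVIN2, CAVIN3 and EHD2 in TCam-2 cells, where counting error is large.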
